A study of Mus musculus with 14 samples.

Results

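The transcripts of the normal female mouse pituitary were described from 7 arrays out of the 14 of the study. The 7 were chosen by their label alone, genotype WT, whatever the age of the mice. The study asked which pituitary genes change in mice without the prolactin receptor (Prlr-/-) before tumors appear, and its Prlr+/+ wild type counterparts are the arrays described here. RNA was amplified, labeled with Cy3 and hybridised to Agilent mouse arrays. Each array carried the RNA of 3 pooled pituitaries, so that the 7 arrays stand for 21 wild type females, with no treatment in the labels. There were 4 pools of 2-month-old mice and 3 pools of 4-month-old mice. The first experiment gave 4 of these pools, 2 at each age. A repeat with other mice, called the second experiment here, gave the remaining 3, of which 2 were taken at 2 months and 1 at 4 months. The other 7 arrays carried pools of Prlr-/- females of the same ages from the same experiments. Pooling leaves the spread between mice unseen, and the labels name the tissue as pituitary with no lobe or cell type.

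As background, the anterior pituitary is made of endocrine cell types named for what they secrete. Lactotrophs make prolactin, somatotrophs make growth hormone, corticotrophs cut adrenocorticotropin out of the POMC precursor, thyrotrophs make thyrotropin, gonadotrophs make the gonadotropins, and melanotrophs of the intermediate lobe cut other peptides from POMC. Hypothalamic peptides and dopamine act on receptors of these cells, hormones of the target glands feed back on them, and the secreted proteins wait in dense granules until exocytosis.

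Each array held 59305 spots, on which 55681 probes were read. A single gene symbol was attached to 26762 probes (48.1%), and these stood for 20284 genes. The 75th percentile of the spot signals was 549, 513, 435 and 443 in the first experiment and 389, 318 and 346 in the second. The median local background lay at 25 or 26 on the 7 arrays, and 34399 to 41887 spots per array were well above background by the scanner software's own call. No spot was saturated. The level given below is the log2 signal of a gene's brightest probe minus the log2 75th percentile of its array, so that a level of 0 is a signal equal to that percentile. Levels, and the ranks made from them, order probes by brightness. They do not count transcripts, since probes differ in how well they bind. The number of arrays limits the precision of every mean.

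The brightest probe was well above background on all 7 arrays for 14034 genes (69.2%) and on no array for 3491 (17.2%). Any probe of a gene served this test for 14053 genes, and 3477 genes had no probe above background on any array. More than 1 probe was present for 5405 genes. In 3814 of them (70.6%) the brightest and dimmest probes stood more than 1 log2 unit apart, with a median gap of 2.02. The level of such a gene thus depends on which probe is read.

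The label was checked against genes that mark sex and tissue. Xist, the RNA that silences an X chromosome in females, was well above background on all 7 arrays, with levels from 1.11 through a median of 1.29 to 1.46. The Y-linked genes Ddx3y, Kdm5d, Uty and Eif2s3y were above background on none. Among the markers of the pituitary cell types, 5 of 5 melanotroph, 5 of 5 corticotroph, 6 of 6 gonadotroph, 4 of 4 thyrotroph and 12 of 12 stem and folliculostellate genes were above background on all 7 arrays.

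The order of probe brightness was headed by Pomc, with a mean level of 10.37. Next came Prl at 10.20 and Gh at 9.86, the genes of prolactin and growth hormone. Chgb, which encodes the granule protein chromogranin B, had a mean of 9.82. The hormone genes and Chgb thus took ranks 1 to 4 of 20284. The next probes belonged to genes that mark no endocrine cell type. Kctd14 had a mean of 9.82, Glrx2, a mitochondrial glutaredoxin, 9.71, and Elk1, a factor activated by growth signals, 9.60. Rn28s1, the large ribosomal RNA, stood at 9.53, Med16, a subunit of the Mediator complex, at 9.49 and Exosc2, a part of the RNA exosome, at 9.47. The dimmest probes of Kctd14, Glrx2, Elk1 and Med16 had means of -2.84, -2.78, -4.02 and 2.24, so the place of these genes depends on which probe is read. When a gene was represented by the mean of its probes, 6 of the 10 genes stayed among the top 10. Cga, the subunit shared by the glycoprotein hormones, followed at rank 11.

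Of the hormone genes, all 7 were well above background on every array. Pomc ranged from 10.20 through a median of 10.35 to 10.50, with an SD of 0.10 over the 7 arrays. Prl ranged from 10.12 through 10.13 to 10.38 (SD 0.12) and was highest in both first-experiment pools of 4-month-old mice. Gh ranged from 9.66 through 9.83 to 10.10 (SD 0.17), and its highest levels were those of the second-experiment pools at 2 months. Cga varied as little, from 9.23 through 9.44 to 9.49 (SD 0.11), with all pools of either experiment in the same span. For every hormone, fewer cells of a type and less RNA per cell cannot be told apart in whole tissue.

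The remaining hormone subunits were dimmer and less alike in their spread. Tshb, the thyrotropin subunit, ranged from 3.79 through 4.79 to 4.99 (SD 0.47), and its low values were both second-experiment pools at 2 months, at 3.79 and 4.01. Lhb, the luteinizing hormone subunit, stayed between 2.47 and 2.83 around a median of 2.66 (SD 0.13). Fshb, the subunit of follicle-stimulating hormone, ranged from 1.58 through 2.82 to 4.44 (SD 1.07). Its SD stood at percentile 99.7 of the genes above background on all arrays, while that of Lhb stood at percentile 15.4, although gonadotrophs make both. Fshb was high in 3 first-experiment pools, at 4.44, 3.77 and 4.39, and lower in the other 4, from 1.58 in replicate 3 at 2 months to 2.82. The remaining first-experiment pool had 2.41, so the experiments overlapped. Levels of Gh and Pomc did not overlap between experiments, being higher in the second, though after another background correction, normexp, 0 of the 7 hormone genes were higher there. A lack of overlap held for 2 of 7 hormone genes against 46.6% of all genes above background on all 7 arrays (6540 of 14034).

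**Figure D1:**
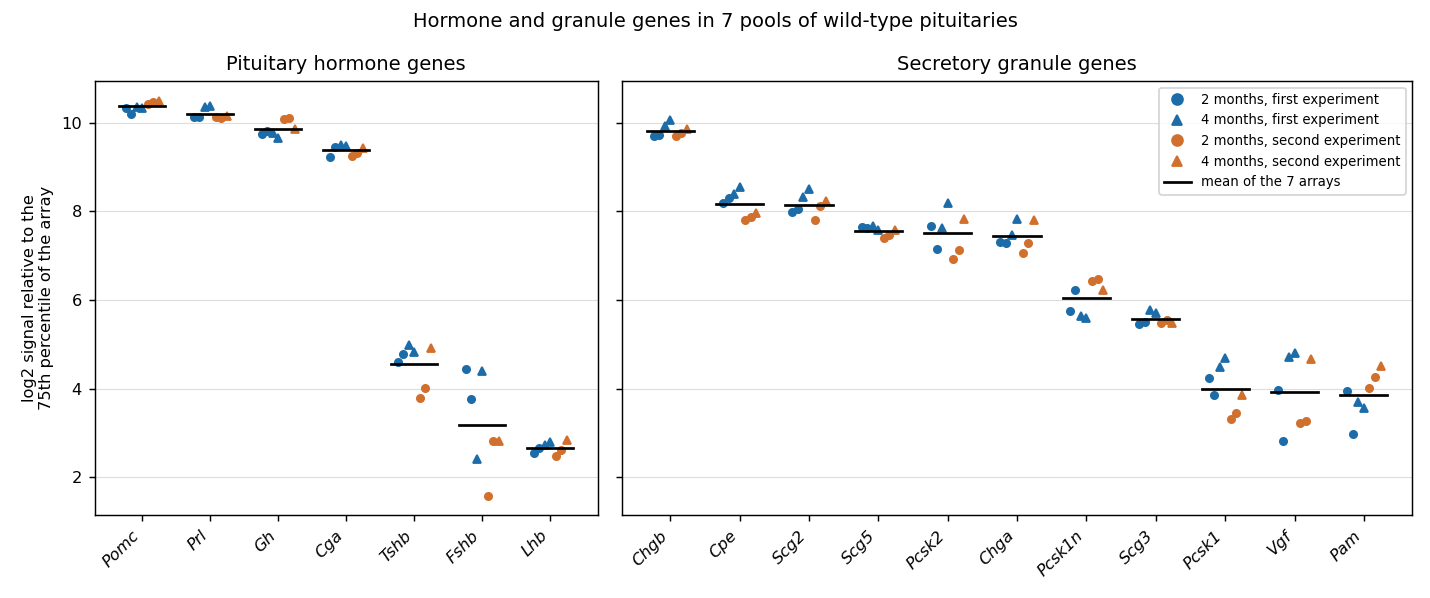
Level of the hormone genes and of the secretory granule genes on each wild-type array, as log2 signal minus that of the array's 75th percentile (points are arrays, colored by experiment and shaped by age, and lines are means over 7 arrays). Pomc points span 10.20 to 10.50 and Fshb points 1.58 to 4.44.

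Because hormone transcripts led the list, the 250 bases before the start of their genes are shown, read from RefSeq promoters on build GRCm38.p6, with an entry for 6 of the 7 genes (none for Gh). They lie at chr13:27057320-27057569 (plus strand, Prl), chr12:3954695-3954944 (plus, Pomc), chr4:34893529-34893778 (plus, Cga), chr3:102782715-102782964 (minus, Tshb), chr7:45420696-45420945 (plus, Lhb) and chr2:107059652-107059901 (minus, Fshb). Capitals mark matches on either strand to 3 motifs. These are TATAAA, a core promoter motif, TATNCAT, a motif of the POU1F1 type, and CAAGGNCA, a motif of the NR5A1 type. Matches to TATAAA on opposite strands overlap where TTTATAAA is read.
Prl: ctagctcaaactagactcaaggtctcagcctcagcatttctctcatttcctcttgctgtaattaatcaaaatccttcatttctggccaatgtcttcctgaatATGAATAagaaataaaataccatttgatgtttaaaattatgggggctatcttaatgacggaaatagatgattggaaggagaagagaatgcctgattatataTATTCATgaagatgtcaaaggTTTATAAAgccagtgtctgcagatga
Pomc: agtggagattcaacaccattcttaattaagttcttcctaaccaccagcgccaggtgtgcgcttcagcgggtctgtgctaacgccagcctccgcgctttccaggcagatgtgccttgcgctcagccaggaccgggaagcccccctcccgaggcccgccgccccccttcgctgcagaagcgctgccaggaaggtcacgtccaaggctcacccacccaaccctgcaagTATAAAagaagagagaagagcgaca
Cga: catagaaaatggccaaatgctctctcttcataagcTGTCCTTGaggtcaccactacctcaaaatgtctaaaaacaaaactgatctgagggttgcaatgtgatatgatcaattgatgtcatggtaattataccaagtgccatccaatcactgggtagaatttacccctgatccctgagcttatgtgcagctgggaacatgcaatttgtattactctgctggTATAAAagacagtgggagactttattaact
Tshb: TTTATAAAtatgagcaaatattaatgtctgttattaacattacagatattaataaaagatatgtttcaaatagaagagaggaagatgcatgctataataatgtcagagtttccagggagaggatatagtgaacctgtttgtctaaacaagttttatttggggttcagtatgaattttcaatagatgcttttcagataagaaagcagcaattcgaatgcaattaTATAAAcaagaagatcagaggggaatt
Lhb: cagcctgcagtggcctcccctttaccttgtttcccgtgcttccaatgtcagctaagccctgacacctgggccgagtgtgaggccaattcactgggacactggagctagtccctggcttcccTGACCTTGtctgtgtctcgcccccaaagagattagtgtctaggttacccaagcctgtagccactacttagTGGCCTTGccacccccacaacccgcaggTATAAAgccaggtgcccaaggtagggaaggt
Fshb: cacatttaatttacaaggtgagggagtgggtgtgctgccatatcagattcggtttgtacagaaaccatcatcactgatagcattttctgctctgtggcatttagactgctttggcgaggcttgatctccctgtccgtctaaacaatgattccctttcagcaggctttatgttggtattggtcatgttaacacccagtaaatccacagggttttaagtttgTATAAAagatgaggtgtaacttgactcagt
TATAAA was found in 6 of the 6 windows and in 12.4% of 32851 windows of the same length before RefSeq genes. TATNCAT was found in 1 of 6, that of Prl, where it lies 148 to 142 and 47 to 41 bases before the start, and in 7.92% of all windows. CAAGGNCA was found in 2 of 6 and in 5.53% of all windows. In Cga it lies 215 to 208 bases before the start, and in Lhb 129 to 122 and 59 to 52 bases before it. TAATCC, a PITX-type motif, was in 0 of 6 and in 6.25% of all windows. A match describes letters only, and the arrays measured no binding.

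The granule and prohormone processing genes, 11 of 11 above background on every array, include the granule matrix proteins and the enzymes that cut and trim hormone precursors. Chgb ranged from 9.71 through 9.76 to 10.07. Scg2, secretogranin II, ranged from 7.80 through 8.12 to 8.50, and Chga, chromogranin A, from 7.06 through 7.32 to 7.84. All 3 matrix proteins reached their highest value in the same pool, replicate 2 at 4 months. Scg5, the chaperone of the convertase PCSK2, had the smallest SD of the list at 0.10 around a mean of 7.57, and Scg3, which anchors granule cargo to the membrane, had a mean of 5.56 (SD 0.12). Cpe, the carboxypeptidase that trims cut hormones, had a mean of 8.16 (SD 0.28). Among the enzymes and their inhibitor, Pcsk2 ranged from 6.92 through 7.64 to 8.20 and was again highest in replicate 2 at 4 months. Pcsk1, the other convertase, ranged from 3.31 through 3.86 to 4.68, and Pam, which amidates peptides, from 2.98 through 3.94 to 4.51. Pcsk1n, the proSAAS inhibitor of PCSK1, had a mean of 6.05 (SD 0.38). Vgf, a granule protein and peptide precursor, had the largest SD of the list at 0.83, with levels from 2.82 through 3.96 to 4.80. Its high values were the 3 pools of 4-month-old mice, at 4.67 to 4.80, and the pools of 2-month-old mice lay between 2.82 and 3.96.

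Genes of regulated exocytosis, 18 of 18 above background on every array, had SDs from 0.08 to 0.49. The brightest were Cplx2, which clamps the fusion machinery, with a mean of 6.03, and Snap25, a member of the fusion complex itself, with 4.43. Rab3a and Rab3b, which tether granules, both had a mean of 4.34. Of the chaperones of the secretory pathway, 12 of 12 were above background on every array. The brightest were Hspa5 at 7.14, Pdia6 at 6.84 and Hsp90b1 at 6.82, which fold proteins in the endoplasmic reticulum, and Xbp1 at 6.37, a factor that raises such chaperones. Hspa5 had an SD of 0.12. The summed level of the list, that is, the log2 of its added signals, lay between 9.22 and 9.50.

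Receptors for hypothalamic and peptide hormones gave probes of medium or low brightness, and 13 of the 19 were above background on all 7 arrays. Sstr5, a somatostatin receptor that lowers hormone release, had the brightest probe, with levels from 2.99 through 3.18 to 3.43. Gnrhr, the gonadotropin-releasing hormone receptor of gonadotrophs, ranged from 1.87 through 1.94 to 2.36. Drd2, the dopamine receptor that restrains lactotrophs and melanotrophs, ranged from 0.45 through 1.21 to 1.90, and its 3 lowest values were the 3 second-experiment pools. Ghrhr, which receives growth hormone-releasing hormone in somatotrophs, ranged from 0.66 through 1.13 to 1.22. The corticotroph receptors Crhr1 and Avpr1b, for corticotropin-releasing hormone and vasopressin, had means of 0.19 (SD 0.18) and 0.43 (SD 0.22). Trhr, the thyrotropin-releasing hormone receptor, had a mean of -1.67 (SD 0.27). The SD of Drd2 was 0.57. Other somatostatin receptors above background on all arrays were Sstr3 with a mean of 1.91, Sstr1 with 0.68 and Sstr4 with -2.04. Oxtr, the oxytocin receptor, ranged from -1.07 through -0.32 to 0.66 with pools of both experiments at either end. The receptors of the VIP and PACAP peptides were Vipr2, from -4.43 through -3.58 to -1.81, and Adcyap1r1, from -1.91 through -1.78 to -1.56. Vipr1 was above background on 6 arrays, though another of its probes passed on all 7. Ghsr, the ghrelin receptor, passed on 6 arrays, the galanin receptors Galr1 and Galr2 on 5 each, the dopamine receptor Drd4 on 4 and Sstr2 on 1. Levels of these dim probes are near the background and are not compared between wild type pools.

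Receptors for feedback hormones and growth factors were above background on all 7 arrays in 25 of 25 cases. Nr3c1, the glucocorticoid receptor, had the brightest probe, from 2.86 through 3.31 to 3.67, and Nr3c2, the mineralocorticoid receptor, a mean of -1.66. The estrogen receptor Esr1 ranged from 0.96 through 1.39 to 1.82. Esr2, the other nuclear estrogen receptor, ranged from 1.59 through 2.32 to 3.34 and had the largest SD of the list, 0.72. Its 3 second-experiment pools, at 3.17 to 3.34, all lay above the 4 first-experiment pools, at 1.59 to 2.32. Gper1, a membrane receptor reported to bind estrogen, had a mean of 0.86 and Pgr, the progesterone receptor, of 0.28. The thyroid hormone receptors Thra and Thrb had means of 2.16 and 2.01, and their partners Rxra and Rxrg had -2.75 and 3.13. Vdr, the vitamin D receptor, had a mean of -0.91. Prlr itself, the prolactin receptor, ranged from 2.60 through 2.91 to 3.24 (SD 0.23) with the experiments overlapping. Receptors of growth and metabolic hormones were Igf1r, with a mean of 3.15, Ghr with -0.82, Insr with -0.66 and Lepr, the leptin receptor, with 2.41. Those of activins and bone morphogenetic proteins were Acvr2b with 2.45, Bmpr1a with 1.55, Acvr2a with -1.19 and Acvr1b with -3.29. Fgfr1, for fibroblast growth factors, had a mean of 2.84, and Egfr, Erbb2 and Erbb3, of the epidermal growth factor receptor family, had 0.24, -2.38 and -3.63. Acvr2b and Fgfr1 varied least, with SDs of 0.10 and 0.11. Within the list 14 of 25 genes had experiments that did not overlap, against 46.6% of all genes above background on all 7 arrays.

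Of 31 transcription factors that build or mark the pituitary, 26 were above background on all 7 arrays. The LIM factor Lhx3 and the paired-type factor Pitx1, both needed to form the gland, had the brightest probes. Lhx3 ranged from 4.97 through 5.23 to 5.54 and Pitx1 from 4.59 through 4.91 to 4.99. Pou1f1, which drives lactotrophs, somatotrophs and thyrotrophs, ranged from 1.85 through 2.10 to 2.52 (SD 0.24). The next factors act in fewer cell types. Foxl2, of gonadotrophs and thyrotrophs, ranged from 3.67 through 4.01 to 4.39, and Nr5a1, of gonadotrophs, from 0.97 through 1.09 to 1.27 (SD 0.10). Gata2, of gonadotrophs and thyrotrophs, had a mean of -0.62. Tbx19, which switches on Pomc, ranged from -0.26 through 0.40 to 1.08, and Pax7, of melanotrophs, from 0.71 through 1.11 to 2.08. Tbx19 was highest in replicate 1 at 2 months and Pax7 in replicate 2 at 4 months, both of the first experiment. Isl1, a LIM factor, ranged from -1.51 through -0.56 to -0.32, and the 3 second-experiment pools were its lowest.

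Factors of early pituitary and neuroendocrine development gave wide differences in brightness and mostly small spreads. Insm1 had a mean of 3.90, Six6 of 2.94 and Six3 of 1.27. Foxo1, a factor inhibited by insulin signaling, had a mean of 2.36 (SD 0.08) and Msx1 of 1.29 (SD 0.11). Otx2 had a mean of -0.28, Neurod4 of -0.63, Lhx2 of -0.64, Neurod1 of -3.85 and Pax6 of -3.63. Egr1, which activates Lhb in response to gonadotropin-releasing hormone, ranged from 1.16 through 1.85 to 2.65 (SD 0.54). The stem cell factors Sox2 and Sox9 had means of -0.75 and -1.39. Hes1 and Sox3 were above background on 5 arrays, Hesx1 on 3, Ikzf1 on 2 and Lhx4 on 1.

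**Figure D2:**
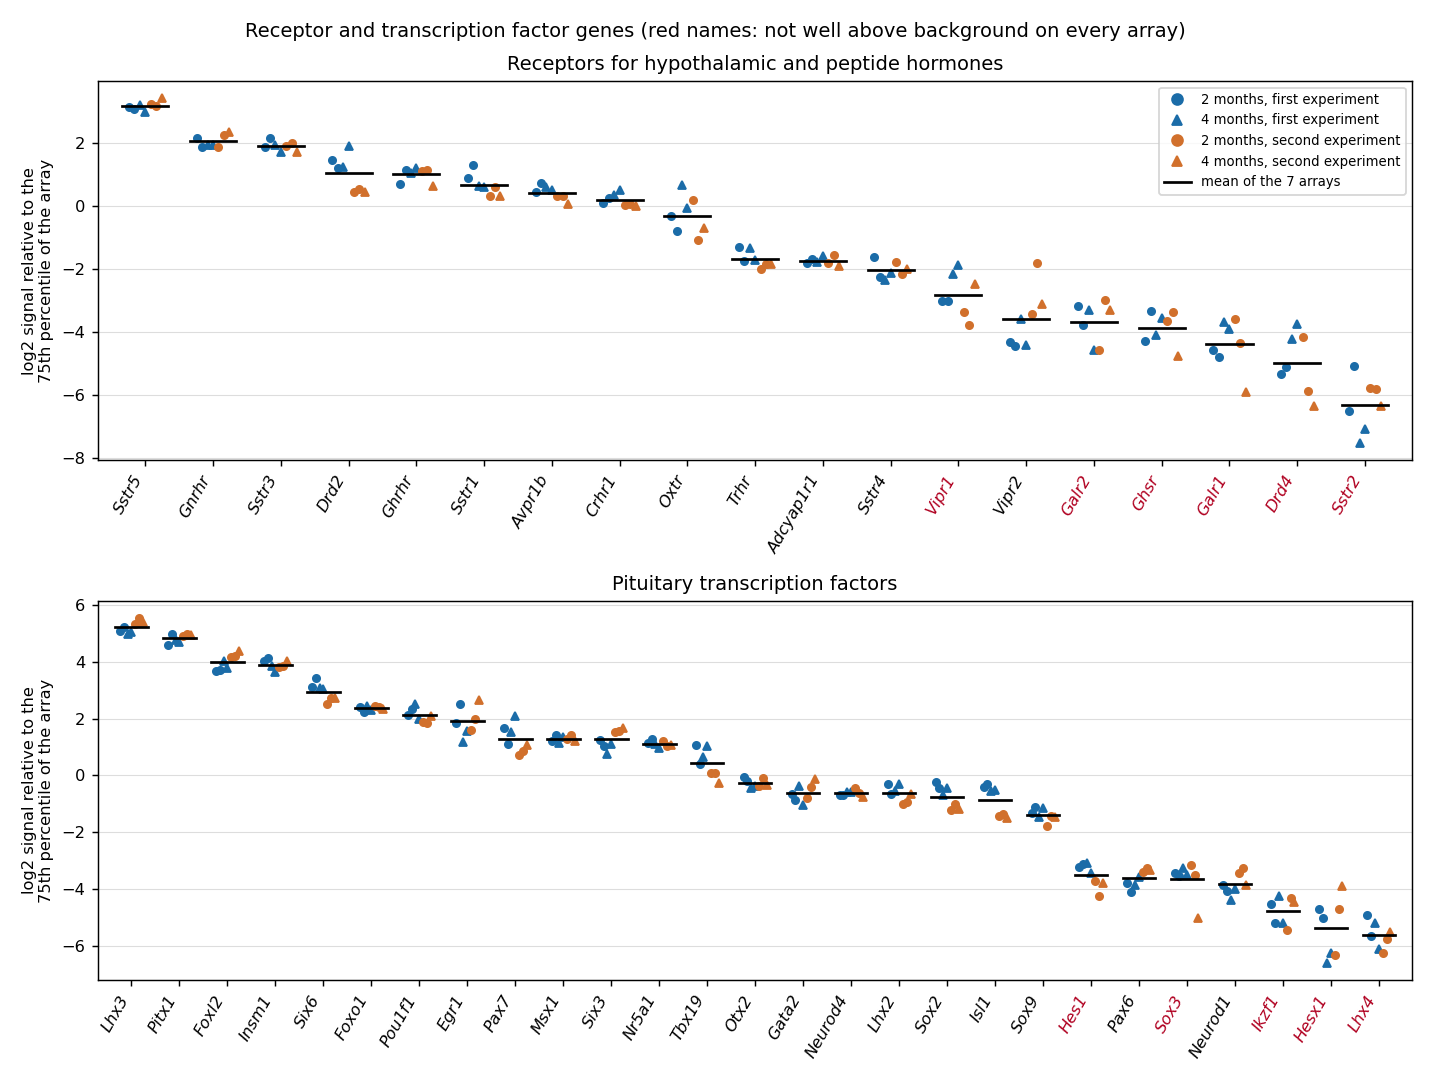
Level of receptor and transcription factor genes on each wild-type array, as log2 signal minus that of the array's 75th percentile, with points colored by experiment, shaped by age, and lines at the mean of 7 arrays. Names in red were not well above background on every array, not all factors of the list are drawn, and Drd2 points span 0.45 to 1.90.

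Markers of the remaining pituitary cells were read as lists. In the melanotroph list Pcsk2, Oacyl, Pax7, Drd2 and Tbx19 were 5 of 5 above background, and the summed level, led by Pcsk2, ran from 7.11 in replicate 3 at 2 months to 8.38 in replicate 2 at 4 months. Oacyl alone ranged from 3.77 through 4.20 to 4.90. All 5 genes had lower fitted levels in the second experiment with every scaling, background correction and probe summary tried, and so did all genes of the thyrotroph and choroid plexus lists, while 6341 to 7533 of all 15821 tested genes had higher ones. Of the 5 genes only Drd2 was called. The corticotroph list, with Pomc, Avpr1b, Tbx19 and Crhr1 as its brightest members, had sums of 10.20 to 10.50, carried by Pomc. The gonadotroph list, led by Cga, Foxl2, Fshb and Lhb, had sums of 9.32 to 9.58. The thyrotroph list had sums of 9.29 to 9.57, led by Cga, and its member Dio2, which activates thyroid hormone, had a mean of 2.95. In the stem and folliculostellate list sums were 5.72 to 6.15. Its brightest members were Cyp2f2, a cytochrome P450 with a mean of 4.54, Cd9, a membrane tetraspanin, with 3.70, Fxyd1, a regulator of the sodium pump, with 2.99, and Aldh1a1, which makes retinoic acid, with 2.15. The activin and inhibin list had 9 of 11 genes above background on all arrays and sums of 4.50 to 4.70. The brightest probes were those of the signal carriers Smad4 at 3.06 and Smad3 at 2.30, Tgfbr3, the inhibin co-receptor, at 2.27 and Inhbb, an activin subunit, at 0.82. Bambi, a pseudoreceptor, was above background on no array.

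Genes of tissue outside the anterior lobe were read next. In the posterior lobe list 7 of 8 genes were above background on all arrays, with sums of 2.20 to 2.47. The brightest were Vim, an intermediate filament, with a mean of 1.17, the water channel Aqp4 with -0.04, the glutamate transporter Slc1a3 with -0.51 and the collagen Col25a1 with -1.17. The defining marker Nkx2-1 passed on 4 arrays. Genes of hypothalamic hormones and of dopamine synthesis passed on all arrays in 3 of 8 cases. Oxt, oxytocin, had a mean of 3.18 and carried the sums, which ran from 2.98 in replicate 3 at 2 months to 3.96 in replicate 2 at 4 months. Th, the enzyme on the way to dopamine, had a mean of 0.08 and Avp, vasopressin, of -0.46. Ghrh passed on 6 arrays and Sst, Crh and Gnrh1 on none. Neuron and myelin genes passed on all arrays in 6 of 10 cases, with sums of 3.59 to 3.88 and Mbp, a myelin protein, as the brightest at 3.09. It was followed by Slc17a6, a glutamate transporter of synaptic vesicles, at 0.38, and the GABA-making enzyme Gad2 had -0.40. Among defining neuron markers, Slc17a7 passed on 5 arrays, Gad1 on 1 and Neurod6 on none. In the choroid plexus list 3 of 3 passed, with sums of 2.93 to 3.64. Folr1, a folate receptor, had a mean of 3.02, Clic6 of -0.37 and Ttr, the thyroxine carrier that defines the list, of -2.22.

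Blood, vessel and connective tissue genes were also measured. The erythroid list passed in 7 of 7 genes with a probe and had sums from 8.18 in replicate 3 at 4 months to 9.86 in replicate 2 at 4 months. The alpha globin Hba-a2 was brightest, from 7.68 through 8.38 to 9.26, followed by Hba-a1 with a mean of 6.09 and the beta globins Hbb-bt with 5.53 and Hbb-b2 with 4.73. Replicate 2 at 4 months held the highest value of these globins and of Alas2, the heme enzyme of red cells, at 1.19. That pool also held the highest sums of the granule, chaperone, melanotroph, gonadotroph and hypothalamic lists, at 11.40, 9.50, 8.38, 9.58 and 3.96, and of the stem, posterior lobe, clock and glucocorticoid response lists, at 6.15, 2.47, 6.49 and 7.66, and the part of erythroid and hypothalamic RNA in those values was not tested. Endothelial genes passed in 10 of 10 cases, with sums of 3.86 to 4.24. The brightest were the growth factor receptors Kdr at 2.83 and Flt1 at 1.34, Plvap, of fenestrated vessels, at 2.02, and the adhesion molecule Esam at -0.13. Pericyte and fibroblast genes passed in 11 of 11 cases, with sums from 6.73 in replicate 1 at 2 months to 7.65 in replicate 1 at 4 months. Col1a2, a chain of type I collagen, had a mean of 6.86, Dcn, decorin, of 4.51, Rgs5, of pericytes, of 1.47 and Lum, lumican, of 1.12. In the leukocyte list 9 of 11 genes with a probe passed, with sums of 5.46 to 5.71. The brightest were the integrin Itgam at 4.87, Cd3e, of T cells, at 3.01, Csf1r, of macrophages, at 2.36 and the chemokine receptor Cx3cr1 at 0.61.

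Markers of muscle, fat and bone were read to look for tissue around the gland. In the skeletal muscle list 2 of 6 genes passed on all arrays, with sums of -0.10 to 0.31. The myosin gene Myh4 had a mean of -0.27 and the actin gene Acta1 of -3.15. Tnnt3, a troponin, passed on 2 arrays, Mylpf, a myosin light chain, on 1, and Ckm and Myh1 on none. In the adipocyte list 3 of 5 passed, with sums of 0.77 to 2.03. Fabp4, a fatty acid carrier, had a mean of 0.93, Retn, resistin, of -1.59 and Plin1, which coats lipid droplets, of -2.64, and the defining markers Adipoq and Cidec passed on none. In the cartilage and bone list 3 of 5 genes with a probe passed, with sums of -0.17 to 0.45. Acan, aggrecan, had a mean of -1.06, Col2a1, cartilage collagen, of -1.46 and Col9a1 of -3.76. Sp7, a bone factor, passed on 6 arrays and Ibsp, a bone matrix protein, on none.

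Lists of cell states completed the description. Of 20 proliferation genes 15 were above background on all arrays and Bub1 and Aurkb on none. Pcna, a sliding clamp of DNA synthesis, had a mean of 3.08, followed by the replication helicase genes Mcm6 at 0.26 and Mcm2 at -0.16, and by Mcm5 at -0.93. Sums ran from 3.62 to 4.51, and the highest were both second-experiment pools at 2 months, at 4.31 and 4.51. Immediate early genes, which respond to stimuli within minutes, passed in 16 of 17 cases. Nr4a1 had a mean of 5.50, Jund of 5.12, Nr4a2 of 3.48 and Fosl2 of 3.32. Sums ran from 6.58 in replicate 1 at 2 months to 7.56 in replicate 3 at 4 months. Clock genes passed in 14 of 16 cases with a probe, with sums of 5.63 to 6.49, led by the output genes Tef at 4.57 and Dbp at 3.98 and the repressors Per1 at 3.37 and Cry2 at 2.86. Glucocorticoid response genes passed in 10 of 10 cases, with sums of 7.21 to 7.66. The metallothioneins Mt2 and Mt1 had means of 6.22 and 6.08, Per1 is shared with the clock list, and Tsc22d3, which restrains inflammation, had 3.22. Estrogen response genes passed in 5 of 7 cases and Nts, neurotensin, on none. Gal, galanin, led them, from 5.25 through 6.36 to 7.25, before Greb1 at 4.59, Pgr at 0.28 and Nmu, neuromedin U, at -0.63. The sums followed Gal, from 5.82 in replicate 1 to 7.56 in replicate 3, both at 2 months.

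Prolactin signaling genes passed in 10 of 10 cases, with sums of 5.84 to 6.17. Akt1, a growth kinase, had a mean of 3.97, and the signal transducers Stat5b and Stat3 and the receptor gene Prlr had 3.33, 3.22 and 2.93. Interferon response genes passed in 8 of 10 cases, with sums of 5.97 to 6.18. Ifi27 had a mean of 5.95, Isg15, a ubiquitin-like tag, of 0.95, Bst2, which tethers viruses, of 0.42 and Oasl2 of 0.12. Heat shock genes passed in 8 of 8 cases with a probe, with sums of 8.85 to 9.15. The chaperones Hspa8, Hsp90aa1, Hspe1 and Hspd1 had means of 8.40, 5.46, 5.04 and 5.01. Housekeeping genes passed in 12 of 12 cases and had sums of 10.25 to 10.43. The ribosomal protein gene Rplp0 had a mean of 8.46, the isomerase gene Ppia came next and the glycolysis gene Gapdh had 7.47, and the median SD of the list was 0.14.

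**Figure D3:**
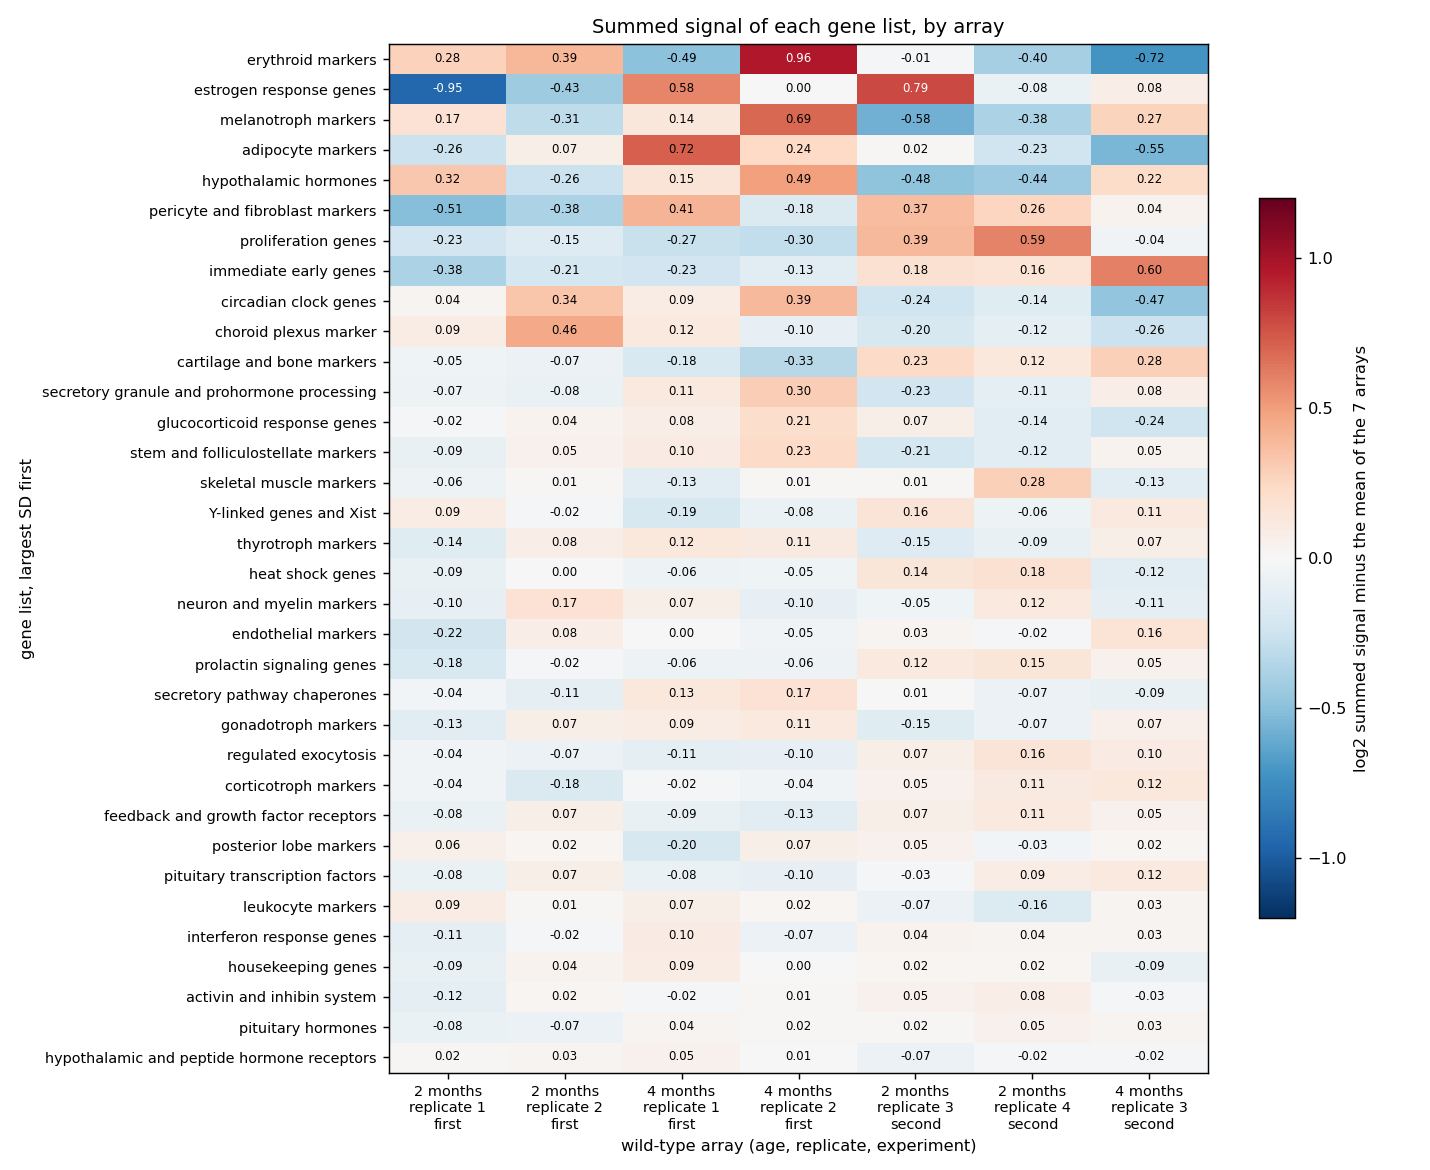
Summed signal of each gene list on each wild-type array, as log2 difference from the mean of the 7 arrays, with lists ordered by SD. Erythroid markers run from -0.72 to 0.96, and pituitary hormones from -0.08 to 0.05.

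The spread between pools was described for the 14034 genes above background on all 7 arrays. The median SD was 0.230, with the 5th percentile at 0.0941 and the 95th at 0.607. An SD above 1 was found for 67 genes (0.477%). After age and experiment were fitted, the median residual SD was 0.142, and 19 genes stayed above 1. Age and experiment accounted for a median of 67.8% of a gene's variance, experiment alone for 51.8% and age alone for 7.50%. These shares are not adjusted for the number of terms, and any term fitted to 7 arrays takes up some variance. The Prlr-/- arrays, not used to choose the variable genes, gave for the same genes a median SD of 0.250 and a residual SD of 0.151. Across genes, which are not independent replicates, the SD of wild type arrays and that of Prlr-/- arrays had a Spearman rho of 0.739, and the residual SDs 0.486. Of the 100 genes with the largest SD in wild type arrays, 42 were among the 100 largest in Prlr-/- arrays. The genes of least spread were Kat7, an acetyltransferase, Ccdc124, Dcaf4, Zfp62 and Mpp1, a membrane scaffold, with SDs of 0.02 to 0.03. Kat7 stayed between 2.76 and 2.82.

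The largest SDs fell on genes of various roles. Ptpn5, a neuronal phosphatase, had an SD of 1.98 and levels from -2.49 through 0.77 to 2.77. Angptl7, a secreted angiopoietin-like protein, had an SD of 1.70, from -5.19 through -2.87 to -0.60. Ucp1, the uncoupling protein of brown fat, had an SD of 1.36, from -3.65 through -2.14 to 0.08. Prss29, a serine protease, had an SD of 1.54, from -2.59 through -0.91 to 1.57. All 4 genes were low in both first-experiment pools at 2 months, which read -2.49 and -1.61 for Ptpn5 and -5.19 and -4.24 for Angptl7. They were highest in replicate 3 at 2 months or replicate 1 at 4 months, and the experiments overlapped for each. Gal had its low and high values in the same pools, at 5.25 and 5.76 in the former and 7.25 and 7.10 in the latter. Fshb read 4.44 and 3.77 in the former, and 1.58 and 2.41 in the latter. What these pools share beyond that was not tested.

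A pool named above set Alox12e apart, a lipoxygenase gene with an SD of 1.67 and levels from -0.70 through 3.54 to 4.18. Its low value was replicate 3 at 2 months, while the other 6 pools read 2.76 to 4.18. In that same pool Ptpn5, Angptl7, Ucp1 and Gal were highest. The experiments did not overlap for it, though it was not called. Myl1, a muscle myosin light chain, had an SD of 1.37, from -0.47 through 1.76 to 2.91. It was high in the 3 pools at 4 months, at 2.12 to 2.91, and in replicate 1 at 2 months. Egr4, Rpgrip1, Leng8 and Kcnj13, with SDs of 1.56, 1.52, 1.40 and 1.34, separated the experiments too and are given with that comparison, so that 5 of the 10 genes with the largest SD had no overlap, against 46.6% of all genes above background on all 7 arrays. The largest residual SDs were those of Alox12e at 1.45, Ptpn5 at 1.41, Olfr470 at 1.36, Angptl7 at 1.35, Prss29 at 1.32 and Ucp1 at 1.28, joined by further genes. Fos, an immediate early factor, had 1.32, with levels from -1.33 through 0.70 to 1.97. Mrgpra3, a receptor of itch neurons, had 1.19, Olfr391, like Olfr470 an olfactory receptor, 1.19, and Slc16a12, a membrane transporter, 1.18. In the first experiment Olfr470, Olfr391, Mrgpra3 and Slc16a12 were higher in replicate 1 than in replicate 2 at both ages, for Olfr470 at 0.77 against -1.63 and 0.61 against -2.21, and the model behind the residual SD has no term for the replicate number. Fos was lowest in replicate 1 and highest in replicate 3, both at 4 months. Without replicate 3 at 2 months, 6 of the 10 genes with the largest SD stayed among the 10.

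**Figure D4:**
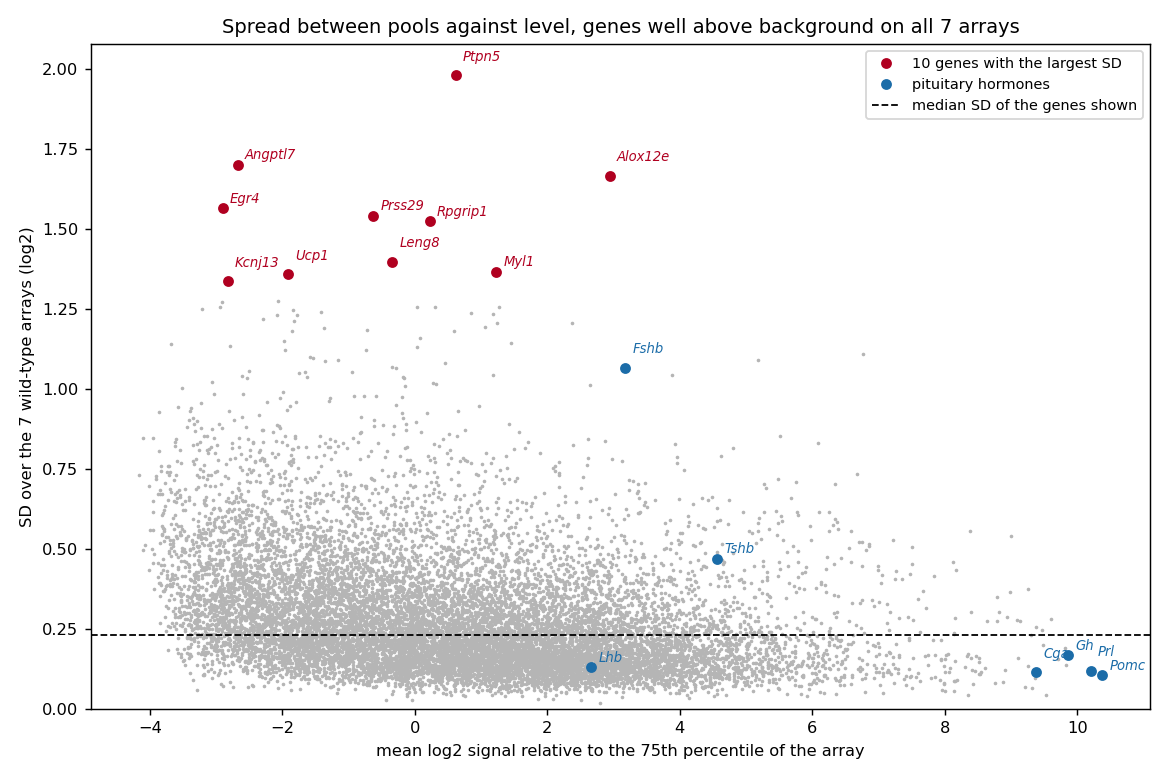
SD over the 7 wild-type arrays against mean level (both log2) for each gene above background on all arrays, with the 10 largest SDs in red, hormone genes in blue and the median SD as a dashed line. Ptpn5 lies highest at 1.98, and Fshb at 1.07 stands above the other hormone genes.

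Pairs of arrays showed how pools grouped. The median absolute difference over genes was 0.119 to 0.177 for 3 pairs of the same experiment and age, and 0.143 to 0.191 for 6 pairs of the same experiment at different ages. Between experiments it was 0.290 to 0.342 for 6 pairs of the same age and 0.285 to 0.345 for 6 pairs of different ages. Every pair from different experiments was farther apart than every pair from the same experiment.

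**Figure D5:**
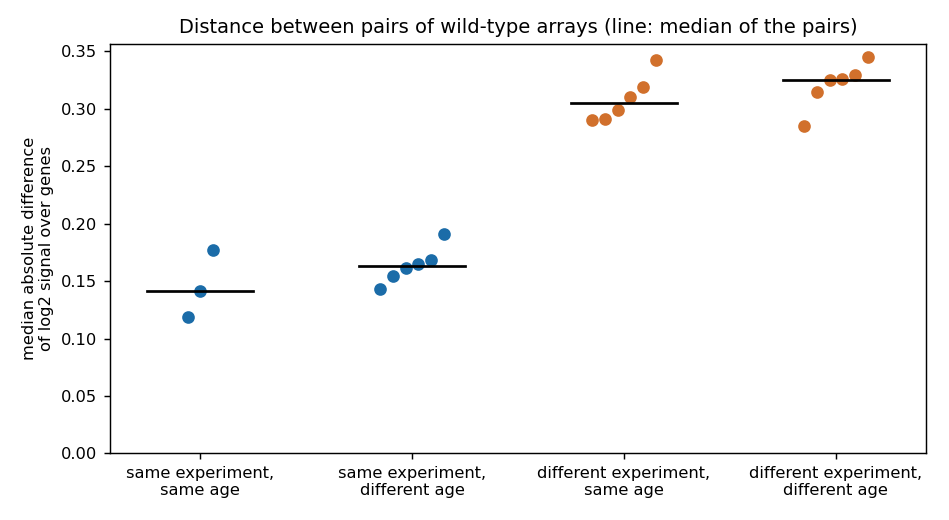
Median absolute difference of log2 signal over genes for each pair of wild-type arrays, grouped by whether the pair shares experiment and age, with lines at group medians. Pairs within an experiment lie at 0.119 to 0.191 and pairs across experiments at 0.285 to 0.345.

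To see whether the pools can be read as a single baseline, the experiments and the ages were compared in the 7 wild type arrays with limma, with adjusted p below 0.01 and at least 1.8-fold as the call. The test covered 15821 genes above background on at least 3 of the 7 arrays. With age fitted, 931 genes (5.88%) were called between experiments. Of these, 509 (3.22%) were higher in the second experiment and 422 (2.67%) lower, a split that became 386 higher and 776 lower after quantile normalization, which moved the median difference between experiments over all genes from -0.02 to -0.10. With no filter on dim probes it was 1596 higher and 371 lower. Among the 931 calls, 80 genes were above background in only 1 experiment, 77 of them the first and 3 the second, and entered the test through the arrays of that experiment. Each experiment used its own mice and array slide, so mice, handling and slide cannot be told apart. The count rested on few arrays. It was 0 without replicate 3 at 4 months, 266 without replicate 3, 486 without replicate 2 and 522 without replicate 4 at 2 months. Without replicate 3 at 4 months the lowest adjusted p in limma was 0.016. An unadjusted p below 0.05 was then found for 5675 of 15756 genes, against 7423 of 15821 with all arrays. With the replicate number as a block, the count of calls was also 0, at a lowest adjusted p of 0.0297. That fit leaves out replicate 3 at 4 months, whose number has no match, so the part of the block is not separable. In the 7 Prlr-/- arrays the same comparison, chosen after seeing the data, called 1059 genes. The calls shared by both genotypes were 514, which is 55.2% of the wild type list and 48.5% of the Prlr-/- list, with the same sign in all 514. The sign agreed for 917 of the 931 wild type calls and for 84.0% of all genes. A genotype by experiment term over all 14 arrays, also added later, gave 0 calls in limma, with 1241 of 16113 genes at an unadjusted p below 0.05.

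Age was fitted in the same model with experiment as a term. In limma 0 of 15821 genes (0%) were called between 2 and 4 months, with 1304 at an unadjusted p below 0.05.

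Among the list members, calls between experiments were few, and all of them ended without replicate 3 at 4 months. Apart from Ciart, a dim probe, the differences of the genes in this paragraph were then 2.30 for Ccnb2, 1.92 for Ccna2, 1.17 for Foxm1, 1.24 for Nr4a2, 0.84 for Klf4, -0.90 for Nr1d1, -0.89 for Nr1d2, -0.73 for Fkbp5 and -0.91 for Tsc22d3, so that some grew and others shrank. Over all genes 5.88% were called. Of 18 proliferation genes tested 3 were called, all higher. The count with higher fitted levels was 16 of 18 under each scaling, against 6341 to 7533 of all 15821 genes. Ccnb2, a mitotic cyclin, ranged from -3.12 through -2.20 to -0.11, and its 3 second-experiment pools, at -1.48 or more, lay above the others, with a difference of 1.95 ± 0.23 (SE, n = 4 and 3, adjusted p 0.00259). Ccna2, another cyclin, and Foxm1, a factor of the mitotic program, were higher by 1.63 and 1.13, but after normexp by 0.72 and 0.46, where neither was called, and Foxm1 by 0.45 with the mean of probes, also not called. The 3 calls ended without replicate 3 at 2 months, at 1.85 for Ccnb2, 1.58 for Ccna2 and 1.09 for Foxm1, and those of the cyclins without replicate 2, at 1.99 and 1.56, or replicate 4, at 1.88 and 1.54. Of 16 clock genes 3 were called, all lower. Nr1d2, a nuclear repressor, ranged from 0.05 through 1.39 to 1.53, with the second-experiment pools lowest, and differed by -1.10 ± 0.14 (adjusted p 0.0029). Its relative Nr1d1 differed by -1.03. Ciart, another repressor, was above background on the 4 first-experiment arrays, through which alone it entered the test, and on none of the second. Both calls ended after normexp, at -0.70 for Nr1d1. The calls of Nr1d1 and Nr1d2 ended without replicate 2 at 2 months, at -1.08 and -1.13, or replicate 4, at -1.02 and -1.11, and those of Nr1d1, at -1.09, and of Ciart without replicate 3. Between 2 and 5 of the 16 clock genes had higher fitted levels, depending on the scaling. Fkbp5 and Tsc22d3, of 10 glucocorticoid response genes, differed by -0.98 and -1.10, and the call of Fkbp5 ended with no filter on dim probes. Both calls ended without replicate 2 or 3 at 2 months, at -0.99 and -0.95 for Fkbp5 and at -1.09 and -1.16 for Tsc22d3, the latter without replicate 4 too, at -1.14, and the former without replicate 1 or 2 at 4 months, at -0.96 and -0.91. Nr4a2 and Klf4, of 17 immediate early genes, were higher by 1.24 and 0.91. The call of Klf4 ended after normexp, at 0.635, and that of Nr4a2 with the mean of probes, at 0.59. The latter also ended without each array except replicate 2 at 4 months, at 1.11 to 1.37. The list's sum was highest in replicate 3 at 4 months, the array on which the count rests, and its part in the result was not tested.

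In the receptor and factor lists 1 member each was called, against 5.88% of all genes. Drd2, of 18 receptors tested, differed by -0.95 ± 0.18 (adjusted p 0.00928), Esr2, of 25 feedback receptors, by 1.27 ± 0.17 (adjusted p 0.00346), and Isl1, of 29 factors, by -1.02 ± 0.08 (adjusted p 0.00156). The call of Drd2 ended whichever of the 7 arrays was left out, at differences of -0.82 to -1.05, and with no filter on dim probes, and that of Esr2 without replicates 2, 3 or 4 at 2 months or replicate 3 at 4 months, at 1.10 to 1.34. Isl1 lost its call without replicate 3 at 4 months, at -1.05, and after normexp, at -0.85. Inha, the inhibin subunit, was higher by 1.29, with second-experiment pools at 0.98 to 1.19 and the others at -0.38 to 0.06. Col25a1 was higher by 1.94, Col2a1 by 1.29 and Plin1 by 0.91, each the only called gene of its list. The call of Col25a1 ended with the mean of probes, at 0.79, and that of Plin1 after quantile normalization, at 0.67, and after normexp, at 0.28. Without replicate 3 at 4 months they read 1.15 for Inha, 1.72, 1.23 and 0.72 and were not called, and Plin1 lost its call without each other array too, at 0.83 to 1.02. Inha lost it without replicate 3 at 2 months, at 1.32, and Col2a1 without replicates 3 and 4, at 1.30 and 1.32. None of the 7 hormone, 11 granule, 18 exocytosis or 12 chaperone genes was called.

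The largest called rises and falls by fitted difference were mostly of dim probes, an order that the bounds given below do not keep. Rpgrip1, of photoreceptor cilia, read -1.05 to -0.88 in the 4 first-experiment pools and 1.72 to 1.97 in the 3 second-experiment pools, a difference of 2.87 ± 0.09 (adjusted p 0.00029). Leng8, Kcnj13, a potassium channel, and Egr4, an immediate early factor, differed by 2.55, 2.42 and 2.82, again with no overlap. Gtsf1l, 4930546C10Rik and Nkx6-3, a homeobox factor, were above background on the 3 second-experiment arrays and on none of the first. Without normexp, their brightest probes were at least 4.05-fold, 3.40-fold and 5.07-fold higher. Xlr5b was above background on 1 of 4 and 2 of 3 arrays. In the other direction, Ska3, of the kinetochore, Gsx2, a homeobox factor, and Bsph1, a sperm-binding protein, were above background on the 4 first-experiment arrays and on none of the second, and were at least 4.43-fold, 3.15-fold and 4.49-fold lower. Tdpoz9 and Ndfip2, an adaptor of ubiquitin ligases, were at least 1.55-fold and 1.18-fold lower, bounds under the 1.8-fold of the call. The test took in genes above background on any 3 arrays, so a gene could enter through the experiment in which it is high. After normexp the calls of Gtsf1l, 4930546C10Rik, Nkx6-3, Xlr5b, Tdpoz9 and Ndfip2 ended. The first 3 then differed by 0.46, 0.42 and 0.57, against bounds of 2.02, 1.76 and 2.34 in the same log2 units. With the mean of probes the calls of Gsx2 and Tdpoz9 ended, and Gsx2 differed by -1.17, against a bound of 1.66 lower. The bounds thus hold only without normexp and for the brightest probe. Without replicate 3 at 4 months Gtsf1l, 4930546C10Rik, Nkx6-3 and Xlr5b were above background on too few arrays to be tested, none of the other calls held, and Rpgrip1, Leng8, Kcnj13 and Egr4 then differed by 2.82, 2.21, 2.30 and 2.18. At 2 months, the call of Egr4 also ended without replicate 2, at 2.98, or replicate 4, at 2.79. Among the dim probes, calls ended without replicate 2 at 2 months for Gtsf1l, Nkx6-3, Xlr5b and Gsx2, and without replicate 3 for Ska3, Gsx2 and Tdpoz9. The same held without replicate 4 for Gsx2 and without replicate 1 for Nkx6-3, and at 4 months without replicate 1 for Gtsf1l and Xlr5b and without replicate 2 for Gtsf1l. Gtsf1l, 4930546C10Rik and Nkx6-3 could not be tested without replicate 3 or 4 at 2 months, nor Xlr5b without replicate 1 or 3.

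The wild type pools were set against the 7 Prlr-/- pools with age and experiment in the limma model, and the members of 5 lists (hormones, granule genes, both receptor lists and factors) are given by name. Over all genes 1021 of 16113 (6.34%) were called, 338 (2.1%) higher and 683 (4.24%) lower in Prlr-/-. Within the first experiment alone the count was 1000 and within the second, on 6 arrays, 41. Of the hormone genes 1 of 7 was called, Gh, whose wild type pools at 9.66 to 10.10 overlapped the Prlr-/- pools, with a mean of 8.96 and a difference of -0.91 ± 0.14 (n = 7 and 7, adjusted p 0.00043). Its call ended at -0.84 without wild type replicate 1 or Prlr-/- replicate 3 at 4 months, at -0.82 without Prlr-/- replicate 1 at 4 months, and at -0.84 with the replicate block, a fit that also leaves out replicate 3 at 4 months of both genotypes. It ended the calls of Pcsk1n and Otx2 given below, at -0.81 and -0.84. Of 18 receptors 5 were called lower. Sstr1 differed by -1.95 ± 0.13, Avpr1b by -1.43 ± 0.21 and Gnrhr by -1.29 ± 0.16, with no overlap of the genotypes (adjusted p 6.01e-07, 0.00029 and 6.32e-05). Ghrhr differed by -1.05, and Ghsr, above background on no Prlr-/- array, was at least 1.45-fold lower. Ghsr, like Neurod1 and Sox3 below, entered the test through its wild type arrays alone, and the bounds given for these 3 genes lie under the 1.8-fold of the call. Drd4, above background on 4 wild type and 7 Prlr-/- arrays, was the only receptor of the list called higher, by 2.12, but after normexp it differed by 0.65 and was not called. Of 25 feedback receptors, Rxrg (-1.01) and Prlr (-0.86) were called lower, though with the mean of probes they differed by -0.67 and -0.52 and were not called. The Prlr probe stayed above background on all 7 Prlr-/- arrays. Of 29 factors 5 were called lower: Pax7 by -1.06 ± 0.18 (adjusted p 0.00069), Otx2 by -0.89, Tbx19 by -0.85, Neurod1 and Sox3 by at least 1.46-fold and 1.66-fold. Pcsk1n was the granule gene called, at -0.87. After normexp the calls of Otx2 and Tbx19 ended, at -0.65 and -0.70. Those of Ghsr, Neurod1 and Sox3 ended too, at -0.47, -0.32 and -0.36. These are smaller than the bounds of the 3 genes, which thus hold only without normexp. Within the first experiment alone the calls of Ghrhr and Otx2 ended, at -1.27 and -0.85. With an array left out, the calls of Pcsk1n, Prlr, Otx2 and Tbx19 ended at -0.82 to -0.84, -0.81 to -0.85, -0.85 and -0.75 to -0.85. For Pcsk1n these were wild type replicate 2 at 2 months or 3 at 4 months, or Prlr-/- replicate 3 at 4 months, and for Otx2 Prlr-/- replicates 2 or 3 at 4 months. For Prlr they were wild type replicates 2 or 4 or Prlr-/- replicates 1 or 4 at 2 months, or Prlr-/- replicate 1 at 4 months. For Tbx19 they were wild type replicate 1 or Prlr-/- replicates 1 or 3 at 2 months, or replicates 1 or 2 of either genotype at 4 months. Within the second experiment alone, on 6 arrays, none of these calls of the 5 lists held, but the differences kept their sign, at -1.74 for Sstr1, -1.14 for Rxrg, -1.11 for Avpr1b, -1.04 for Gnrhr, -0.96 for Otx2, -0.84 for Pcsk1n, -0.83 for Prlr, -0.77 for Ghrhr, -0.74 for Pax7, -0.72 for Gh and -0.46 for Tbx19. In other lists, 10 of 19 proliferation genes were called higher and 0 lower. Among the 10 was Bub1, above background on no wild type array, which entered the test through its Prlr-/- arrays alone. Of these 10 calls, 6 ended after normexp, 3 within the first experiment alone and all within the second. That of Cdc20 also ended with the replicate block, at 0.81. Of 10 prolactin signaling genes 4 were called lower, Prlr among them, and 1 of the 4 was also called within the second experiment alone. Lower calls also fell on 3 of 5 corticotroph, 2 of 8 posterior lobe and 4 of 11 pericyte and fibroblast genes. Higher calls in these lists were 0, 0 and 1. After normexp the calls of Lum, Pdgfra, Col25a1 and Nkx2-1 ended, at -0.84, -0.755, -0.71 and -0.16. Those of Col25a1 and Nkx2-1 also ended within the first experiment alone, at -0.96 and -0.996, and within the second, at -1.41 and -0.67. The calls of Dcn, Lum, Pdgfra, Ogn and Rgs5 ended within the second experiment alone, at -0.88, -0.81, -1.82, -0.96 and 1.31. Nkx2-1 also lost its call after quantile normalization, at -0.76, with the replicate block, at -0.75, and without some single arrays, at -0.74 to -0.84. None of 12 stem and folliculostellate, 10 endothelial, 11 leukocyte or 7 erythroid genes was called. Of the genes with the largest SD, Prss29 was higher by 4.49 and Ptpn5 and Alox12e lower, at -2.99 and -2.82. Within the second experiment alone they differed by 4.31, -3.09 and -1.88 and were not called, and the calls of Ptpn5 and Alox12e also ended within the first, at -2.91 and -3.53. The call of Alox12e ended with no filter on dim probes, with the replicate block and without each array except wild type replicate 3 or Prlr-/- replicate 2 at 2 months.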

How the data were processed

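The 14 arrays are 1-color Agilent mouse arrays of probe build mm9. Per the file headers the scanner tables hold spot intensity in arbitrary units, background subtracted and detrended by Feature Extraction, and the authors deposited a table of log2 values, scaled to the 75th percentile in GeneSpring and centred on each probe's median over 14 arrays. The log2 values made here from the scanner tables and those the authors deposited had a Pearson r of 0.999 and a median absolute difference of 0.0151.

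Spots called outliers were set missing, with up to 2 missing values of 14 per probe. A probe was called above background by the scanner software. A gene stands for its probe with the highest mean over the 7 wild type arrays. The wild type arrays were fitted with age and experiment, and all 14 with genotype, age and experiment, in limma 3.58.1 (R 4.3.3), on genes above background on at least 3 arrays. A call is an adjusted p (Benjamini-Hochberg) below 0.01 with at least 1.8-fold. Other steps used Python 3.11.15, numpy 2.4.6, pandas 2.3.3, scipy 1.17.1 and matplotlib 3.10.9. Arrays of the same replicate number were checked for pairing across genotypes and ages within an experiment: 7 pairs of groups had correlations of 0.205 to 0.383, so a replicate block was among the alternatives.

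Named are the 10 brightest genes, the hormone, granule, hypothalamic receptor, feedback receptor and transcription factor genes, up to 4 brightest members and the defining markers below background of each other list, the 10 largest SDs and residual SDs, the 5 smallest SDs, and the 5 largest called rises and falls. Of these, a few list members entered the counts and sums but are not reported here. In all, 34 lists held 344 genes, 339 with a probe. The members and lists were chosen with earlier results of these data known. Alternatives were other scalings, background corrections, filters, probe summaries, samples and replicates left out. The comparison of experiments in Prlr-/- arrays and the genotype by experiment term were chosen after seeing the data. Probes with no single gene symbol were left out of gene results.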

Additional observations from a re-analysis of the deposited data

Results flagged for a closer look

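In 160 groups of 7 wild type arrays (named genes, list sums and array measures), a sample was marked where its gap to the nearest other sample exceeded 0.568 of the range. This met 5 groups (3.13%), and chance alone marks about 1 in 20. Igf1r was highest in replicate 2 at 2 months, at 3.47. Sox3, above background on 5 arrays, was lowest in replicate 3 at 4 months, at -5.02. That level is near the background, so its gap is not read as a difference between pools. Alox12e was lowest in replicate 3 at 2 months, at -0.70. The summed level of the posterior lobe list was lowest in replicate 1 at 4 months, at 2.20, and that of the skeletal muscle list was highest in replicate 4 at 2 months, at 0.31. What sets these samples apart was not tested.

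Probes without a single gene symbol were outside the gene results. Of these 28919 probes, 11358 were well above background on all 7 wild type arrays.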

How the results depend on the processing

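The count of genes called between experiments in wild type arrays, 931, was 515 after normexp (293 higher and 222 lower), 1967 with no filter on dim probes (1596 higher and 371 lower) and 5555 at an adjusted p below 0.05 with no fold limit. Leaving out an array gave 0 to 820. With the replicate block it was 0, on the 6 arrays that remain without replicate 3 at 4 months, whose omission alone gave 0, so the part of the block is not separable. It stayed within 1.5 times the count, at 873 to 1162, after quantile normalization, with the authors' log2 table, with genes above background on every array, with the mean of probes and without the age term, and was 1059 in Prlr-/- arrays. The age comparison called 0 genes under every alternative. The count between genotypes, 1021, was 447 after normexp, 679 with genes above background on every array, 41 within the second experiment, 1000 within the first and 5554 with no fold limit. Leaving out an array gave 905 to 1076, and the other alternatives 900 to 1028. The cause of these changes was not tested.

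Of the 10 brightest genes, 6 stayed with the mean of probes and 8 to 10 elsewhere. The count of genes above background on all arrays stayed within 1.5 times its value. The median SD of 0.230 was 0.124 in the second experiment alone, 0.154 in the first, where the difference between experiments does not enter, and 0.222 to 0.232 with an array left out. Of the 10 genes with the largest SD, 6 stayed after normexp, 1 when genes above background on 3 of 7 arrays entered, 5 in the first experiment alone, 4 in the second and 6 to 9 with an array left out.

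Of 88 named levels, quantile normalization moved 19 beyond their SD, normexp 27, the mean of probes 20, the second experiment alone 8 and leaving out an array none. Among list members and genes named by rule, 30 calls between experiments and 51 between genotypes were followed through the alternatives. None of these differences changed sign where it was tested, and the other calls were not followed. Normexp was run on the median spot signal, since the files hold no mean spot signal. Signals near the local background limit what dim probes can show, and a level depends on the probe that is read.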
